A study of Mus musculus with 54 samples.

Results

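The activator arm of the molecular clock was followed in the suprachiasmatic nucleus (SCN) through the genes *Arntl*, *Arntl2*, *Clock* and *Npas2*. All 4 were found by their symbols among the 30031 rows of the count table, and all 4 passed the filter on low counts that left 18941 genes for testing. The 18 biological replicates came from male C3H/HeH mice of 10 to 12 weeks, without any genetic or drug treatment, that were kept in a cycle of 12 hr of light and 12 hr of dark. The SCN was cut out by laser capture at ZT2, ZT6, ZT10, ZT14, ZT18 or ZT22 (zeitgeber time, hours after lights on), and tissue of 5 mice was pooled into 1 replicate, with 3 replicates (A, B and C) per timepoint. About 1 ng of RNA per replicate was amplified before sequencing on 3 lanes, which the deposited counts combine. Each value is therefore an average over 5 animals and over all cell types of the captured tissue, and fewer cells of a type cannot be told apart from less RNA per cell.

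The proteins of these genes carry a basic helix-loop-helix and PAS domains and act in pairs. A partner from the ARNTL (BMAL1) side joins one from the CLOCK side, and the pair binds E-box sequences and switches on genes such as *Per1*, *Per2*, *Cry1*, *Nr1d1* and *Dbp*. PER and CRY proteins then repress the pair, while REV-ERB repressors and ROR activators act through their own elements on *Arntl*. NPAS2 is a relative of CLOCK that can take its place, is best known from the forebrain, and ARNTL2 (BMAL2) is a relative of ARNTL.

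Totals of counted reads ran from 15412981 to 35820945 per replicate. In a PCA of log2 CPM over the 500 most variable genes, the libraries formed 3 clusters, of ZT2 and ZT22 (-42.9 to -31.4 on the first component), of ZT10 and ZT6 (24.4 to 51.9), and of ZT18 and ZT14 (-10.1 to -0.49), with replicate C at ZT18 apart from the last at 23.7. The study's legend to its own PCA names both timepoint and sequencing batch. Its text judges batch effects to be minimal, as most key clock genes peaked at the expected timepoints. It also reports high concordance of qPCR with the sequencing. Between these clusters timepoint and any batch cannot be told apart. Markers of SCN neurons were found in all libraries, such as *Vip* (a neuropeptide of the SCN core) at 747 to 3231 CPM (counts relative to the TMM-adjusted library size) and *Avp* (a neuropeptide of the SCN shell) at 3.12 to 478 CPM.

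In the annotation (GENCODE M21, build GRCm38), *Arntl* (ENSMUSG00000055116) lies on chromosome 7 from 113207465 to 113314126 on the plus strand. *Clock* (ENSMUSG00000029238) lies on chromosome 5 from 76209868 to 76304792 on the minus strand, *Npas2* (ENSMUSG00000026077) on chromosome 1 from 39193731 to 39363236 on the plus strand, and *Arntl2* (ENSMUSG00000040187) on chromosome 6 from 146796055 to 146833529 on the plus strand. One antisense gene, *Gm45355*, shares 33 bases of exon with *Arntl*, and reads there could not be assigned to a strand. No stretch of 50 bases in the transcripts of *Arntl*, *Clock* or *Npas2* occurs in another gene (0 of 7660, 0 of 13768 and 0 of 4738 stretches), and 52 of 5826 (0.893%) of those of *Arntl2* do, shared with 200 other genes.

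Promoter windows were read to show which letters known to matter in this pathway stand next to the starts. RefSeq (GRCm38.p6) gave 7 windows for the 4 genes, each of 300 bases reaching from upstream of an annotated start into the transcript. The core of the element bound by ROR and REV-ERB receptors (AGGTCA, searched on both strands) occurred in 2 of them, which are shown here 5′ to 3′ on the strand of the gene with the match in capitals, followed by the *Npas2* window as one without a match.
Arntl, window at chr7:113207261-113207560, plus strand: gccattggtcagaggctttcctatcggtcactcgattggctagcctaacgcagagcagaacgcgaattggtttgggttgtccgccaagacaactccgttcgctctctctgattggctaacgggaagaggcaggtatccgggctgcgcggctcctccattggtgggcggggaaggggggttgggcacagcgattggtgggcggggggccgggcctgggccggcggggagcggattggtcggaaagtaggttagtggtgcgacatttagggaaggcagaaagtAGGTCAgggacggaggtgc
Clock, window at chr5:76303453-76303752, minus strand: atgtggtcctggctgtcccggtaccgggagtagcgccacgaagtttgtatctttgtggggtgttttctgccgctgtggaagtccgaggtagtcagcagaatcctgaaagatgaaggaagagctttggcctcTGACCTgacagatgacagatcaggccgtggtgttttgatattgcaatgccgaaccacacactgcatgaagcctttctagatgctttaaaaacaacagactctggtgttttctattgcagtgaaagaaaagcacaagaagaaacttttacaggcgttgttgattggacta
Npas2, window at chr1:39194022-39194321, plus strand: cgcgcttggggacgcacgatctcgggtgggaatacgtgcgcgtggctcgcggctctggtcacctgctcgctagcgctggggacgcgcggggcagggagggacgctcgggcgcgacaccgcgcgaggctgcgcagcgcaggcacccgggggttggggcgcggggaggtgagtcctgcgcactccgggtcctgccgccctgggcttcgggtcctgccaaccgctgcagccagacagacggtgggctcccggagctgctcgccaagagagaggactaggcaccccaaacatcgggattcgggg
The *Arntl* match began 32 bases into the transcript on the strand of the gene, and the *Clock* match lay on the other strand, 119 bases before that start. These letters are common, as 16.3% of all 32851 promoter windows hold them. The E-box CACGTG (7.15% of windows), the cAMP element TGACGTCA (1.79%) and the D-box TTATGTAA (0.938%) were in none of the 7 windows.

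Per kilobase of annotated exon, which allows levels of different genes to be set side by side, *Arntl* and *Clock* were close and the other genes lower. Their mean levels over 18 replicates were 4.91 ± 1.73 (SD) CPM per kb for *Arntl* and 4.24 ± 1.26 for *Clock*, above those of 62.2% and 59.1% of tested genes. *Npas2* was at 1.23 CPM per kb and *Arntl2* at 0.570, above 37.7% and 27.2% of tested genes. When the longest transcript replaced the union of exons, *Arntl* rose to 9.24 and *Clock* to 5.97 CPM per kb, so the order held but the distance between the first and the second gene widened. The reads behind these values numbered 470 to 2580 per replicate for *Arntl* and 738 to 2835 for *Clock*, but only 49 to 405 for *Npas2* and 7 to 245 for *Arntl2*.

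*Arntl*, which encodes the obligatory partner of the pair, was low at ZT2 and ZT6 and had its highest means at ZT14 and ZT18. Its level was 31.3, 29.0 and 19.2 CPM in replicates A, B and C at ZT2, and 21.9, 24.3 and 22.2 CPM at ZT6. It was 42.0, 31.8 and 38.9 CPM at ZT10, and 72.0, 37.7 and 46.0 CPM at ZT14. At ZT18 it was 51.1, 47.8 and 38.9 CPM, and at ZT22 47.0, 28.6 and 34.8 CPM. Every replicate of ZT10, ZT14, ZT18 and ZT22 was above every replicate of ZT6, while ZT22 overlapped with ZT2. Replicate A at ZT14 stood far above the other two.

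*Arntl* passed the edgeR quasi-likelihood test over the 6 timepoints (Benjamini–Hochberg q = 0.00725), as 44.0% of all tested genes did. It also passed JTK_CYCLE, a rank test for a 24 hr cosine (exact p = 0.00672, best lag ZT18), as 37.4% of tested genes did. With edgeR as the time test it was the only member to pass both, which 29.9% of tested genes did. Its mean at ZT14 (51.9 ± 17.9 CPM) was above that at ZT6 (22.8 ± 1.32 CPM) by a log2 difference of 1.18 ± 0.26 (SE, edgeR q = 0.00340), a contrast in which 23.3% of tested genes were called. ZT18 exceeded ZT6 by 1.01 ± 0.26 (edgeR q = 0.0114, 20.7% called). The gap between ZT14 and ZT2 was 0.97 ± 0.26 (edgeR q = 0.0106, 23.8% called), and fell to 0.66 (q = 0.0900) without replicate A at ZT14 and to 0.63 (q = 0.0988) without replicate C at ZT2. ZT18 against ZT2 differed by 0.79 ± 0.26 (edgeR q = 0.0356, 22.0% called), a call that was lost without replicate B or C at ZT2 or A or B at ZT18 (q from 0.0657 to 0.188, and 0.51 without replicate C at ZT2), and also under other scalings. No neighbours in the order ZT14, ZT18, ZT10, ZT22, ZT2 and ZT6 differed by the test, with edgeR q from 0.504 to 1.00. Both time calls held without any single replicate, with edgeR q from 0.00443 to 0.0187 and JTK_CYCLE exact p from 0.00183 to 0.0194. Without replicate C at ZT18, which stood apart in the PCA, ZT18 exceeded ZT6 by 1.12 (edgeR q = 0.00811) and ZT2 by 0.90 (edgeR q = 0.0283). The summed level of 5 oligodendrocyte markers was 4351 to 5484 CPM at ZT14 and 4666 to 5439 CPM at ZT18, but 1151 to 2776 CPM at ZT6 and 2045 to 4234 CPM at ZT2. The sum of 9 markers of SCN neurons was lower at ZT14 (1276 to 1829 CPM) and ZT18 (1866 to 2298 CPM) than at ZT6 (4876 to 5405 CPM). It was 4142 to 4873 CPM at ZT10, and at ZT2 its 2017 to 3365 CPM overlapped with ZT18. Of these markers, 8 of the 9 for SCN neurons and 5 of the 5 for oligodendrocytes were themselves called cycling. The part of either sum in the *Arntl* difference was not tested.

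**Figure D1:**
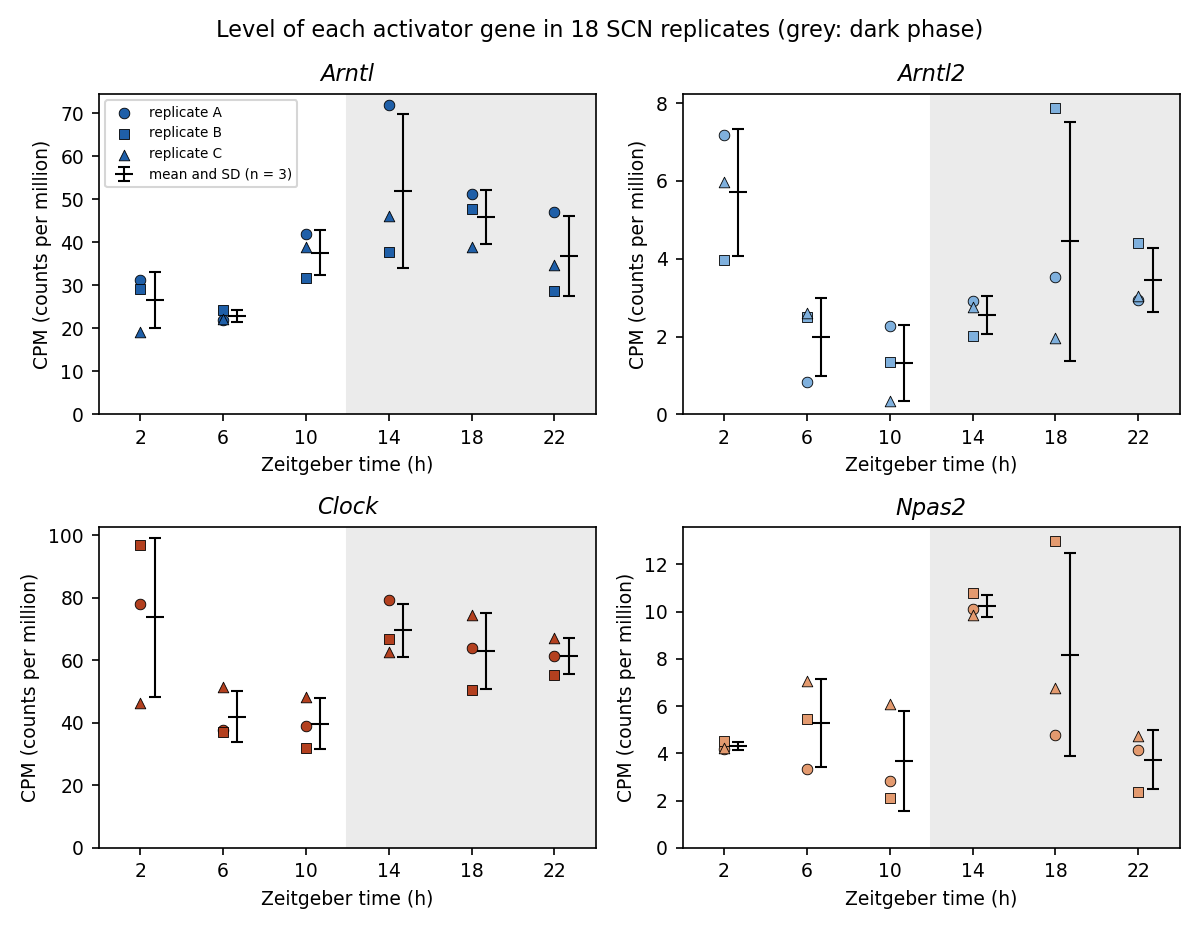
Level of each activator gene in CPM (y axes, from 0) against zeitgeber time (x axes, hr), with 1 symbol per replicate and the mean and SD of n = 3 drawn beside them; the dark phase is grey. *Arntl* at ZT6 (21.9 to 24.3 CPM) sits under all replicates of ZT10 to ZT22, *Clock* is lowest at ZT6 and ZT10, and the 3 *Npas2* replicates at ZT14 (9.84 to 10.8 CPM) lie close together. Of all tested genes, from 12.4% (ZT10) to 46.3% (ZT22) are separated from ZT6 in either direction in these pairs.

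*Clock*, which encodes the partner of ARNTL in the main pair and has histone acetyltransferase activity, was low at ZT6 and ZT10 and higher at the other timepoints. Its level at ZT2 was 78.0, 96.8 and 46.4 CPM in replicates A, B and C. It was 37.7, 36.9 and 51.3 CPM at ZT6, and 38.97, 32.0 and 48.2 CPM at ZT10. It was 79.1, 66.7 and 62.8 CPM at ZT14, 63.9, 50.3 and 74.5 CPM at ZT18, and 61.4, 55.4 and 67.2 CPM at ZT22. The replicates at ZT14 and ZT22 all lay above those at ZT6 and ZT10, whereas replicate C at ZT2 lay among them. Over all tested genes, ZT14 was separated in either direction from ZT6 in 41.6% and from ZT10 in 43.8%. For ZT22 these shares were 46.3% and 49.5%.

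*Clock* passed the time test (edgeR q = 0.0214) but not JTK_CYCLE (exact p = 0.332). Its mean of 73.7 ± 25.5 CPM at ZT2 exceeded 39.7 ± 8.11 CPM at ZT10, with a log2 difference of ZT10 minus ZT2 of -0.89 ± 0.25 (edgeR q = 0.0107, 29.0% of tested genes called), and ZT6 minus ZT2 was -0.81 ± 0.25 (edgeR q = 0.0166, 33.8% called). These groups overlapped through replicate C at ZT2, and the calls were lost without replicate B at ZT2 (q = 0.0798 and 0.111), the first also without replicate B at ZT10 (q = 0.0584) and the second without replicate A (q = 0.0555) or B (q = 0.0626) at ZT6. ZT14 exceeded ZT10 by 0.81 ± 0.25 (edgeR q = 0.0310, 16.8% called) and ZT6 by 0.73 ± 0.25 (edgeR q = 0.0402, 23.3% called), without overlap. Both of these calls were lost without any one of the 3 replicates at ZT14 (q from 0.0508 to 0.134), the first also without replicate A or B at ZT10, and the second without replicate A or B at ZT6 or A at ZT10 (q from 0.0503 to 0.137), and the second also with DESeq2's Wald test (adjusted p = 0.0691). The time test itself was lost without replicate A (q = 0.0518) or B (q = 0.0580) at ZT10. The summed level of 5 astrocyte markers was 1737 to 1758 CPM at ZT6, 1268 to 1577 CPM at ZT10 and 1904 to 3923 CPM at the other timepoints. That of 3 pan-neuronal markers was 2025 to 2860 CPM at ZT6 and ZT10, 2473 to 2982 CPM at ZT18 and 3336 to 6352 CPM at the others. The astrocyte sum was lowest at the timepoints where *Clock* was low, the pan-neuronal sum overlapped between these and ZT18, and their part in the *Clock* difference was not tested. The swing from the lowest to the highest timepoint mean, 0.85 on the log2 scale, exceeded that of 14.1% of tested genes, beside 27.4% for *Arntl*, 48.7% for *Npas2* and 73.9% for *Arntl2*. This order is the reverse of that of their reads, and the ranking takes in genes of all levels, with no adjustment for level.

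*Npas2*, the relative of *Clock*, had its highest mean at ZT14. It stood at 4.18, 4.52 and 4.24 CPM in replicates A, B and C at ZT2, at 3.34, 5.45 and 7.05 CPM at ZT6, and at 2.81, 2.13 and 6.09 CPM at ZT10. It was 10.1, 10.8 and 9.84 CPM at ZT14, 4.77, 13.01 and 6.77 CPM at ZT18, and 4.13, 2.35 and 4.73 CPM at ZT22. All 3 replicates at ZT14 lay above every replicate of the other timepoints except replicate B at ZT18. Separation of ZT14 in either direction held for 48.1% of tested genes against ZT2, 41.6% against ZT6, 43.8% against ZT10 and 47.8% against ZT22.

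*Npas2* did not pass the time test (edgeR q = 0.0520, and 0.0412 without replicate C at ZT18) and JTK_CYCLE (exact p = 0.273), but DESeq2's likelihood ratio test called it (q = 0.0136). ZT14 (10.2 ± 0.480 CPM) exceeded ZT10 (3.68 ± 2.12 CPM) by a log2 difference of 1.48 ± 0.49 (edgeR q = 0.0466, 16.8% of tested genes called), and ZT22 minus ZT14 was -1.45 ± 0.49 (edgeR q = 0.0448, 19.1% called). Each call was lost without any one of 11 of the 18 replicates, 10 of them the same for both calls, with q up to 0.177 (without replicate B at ZT10) and 0.180 (without replicate B at ZT22). Telencephalic neurons, in which this gene is known to be high, were followed through *Slc17a7*, *Neurod6* and *Tbr1*, none of which was at 0 in any library. Their summed level was 77.9 to 176 CPM at ZT14, 49.8 to 199.8 CPM at ZT22 and 31.5 to 69.5 CPM at ZT2. It was 11.6 to 13.1 CPM at ZT6, 28.7 to 59.5 CPM at ZT10 and 23.6 to 40.8 CPM at ZT18. The oligodendrocyte markers were higher at ZT14 than at ZT10, where they summed to 1421 to 1773 CPM. The part of either tissue component in the *Npas2* difference was not tested.

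*Arntl2* was the rarest member and had its highest mean at ZT2. Its level was 7.18, 3.96 and 5.97 CPM in replicates A, B and C at ZT2, 0.824, 2.51 and 2.60 CPM at ZT6, and 2.28, 1.35 and 0.330 CPM at ZT10. It was 2.90, 2.00 and 2.75 CPM at ZT14, 3.52, 7.87 and 1.95 CPM at ZT18, and 2.94, 4.41 and 3.05 CPM at ZT22. Every replicate at ZT2 and at ZT22 was above every replicate at ZT6 and ZT10, and replicate B at ZT18 stood apart from the other two. Of all tested genes, 44.0% were separated in either direction between ZT2 and ZT6 and 47.1% between ZT2 and ZT10. For ZT22 these shares were 46.3% and 49.5%.

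The time test did not call *Arntl2* (edgeR q = 0.118), DESeq2's likelihood ratio test did (q = 0.0229), and JTK_CYCLE gave an exact p = 0.0178 with ZT22 as the best lag. With DESeq2's test in place of edgeR's, *Arntl2* thus passed both a time test and JTK_CYCLE. Without replicate C at ZT10, which holds 7 reads, JTK_CYCLE gave an exact p = 0.0662. The single contrast called was ZT10 minus ZT2, at -2.11 ± 0.70 (edgeR q = 0.0296, 29.0% of tested genes called), between means of 1.32 ± 0.976 and 5.70 ± 1.63 CPM. This call was lost without replicate A at ZT2 or replicate B or C at ZT10, with q from 0.0789 to 0.102.

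Of the 60 tests, 15 pairs of timepoints for each of 4 genes, 11 were called by edgeR, all of them among the 48 between the clusters of libraries. In such pairs of timepoints, edgeR called from 12.8% (ZT18 and ZT10) to 33.8% (ZT6 and ZT2) of all tested genes. Within the clusters none of the 12 tests was called by edgeR (0) or by DESeq2 (0), and 1 had an unadjusted edgeR p under 0.05, *Arntl* at ZT10 over ZT6 (log2 difference 0.72 ± 0.26, q = 0.380). The background there was low as well, as 0.570% of tested genes were called between ZT14 and ZT18, 0.0475% between ZT6 and ZT10, and 0.0317% between ZT22 and ZT2. Between clusters DESeq2 called 15 of 48 and edgeR on reads recovered from the study's second table called 16, beside 11. By edgeR on the counts with TMM, no member was called between ZT18 and ZT10 (12.8% of tested genes called), ZT22 and ZT10 (26.4%), ZT22 and ZT6 (32.5%) or ZT22 and ZT18 (18.1%). In these pairs DESeq2 called *Arntl2* at ZT18 over ZT10 (adjusted p = 0.0391), *Clock* at ZT22 over ZT10 (0.0473) and *Arntl* at ZT22 over ZT6 (0.0320). With upper-quartile scaling in place of TMM, edgeR also called *Arntl* at ZT22 over ZT6 (q = 0.0407). The recovered reads gave calls for *Npas2* at ZT18 over ZT10 (edgeR q = 0.0279), *Clock* at ZT22 over ZT10 (0.0455) and over ZT6 (0.0398), and *Arntl* at ZT22 over ZT6 (0.0323). The variance of the timepoint means that lay between clusters was 62.3% for *Arntl*, 94.7% for *Clock*, 84.3% for *Npas2* and 80.7% for *Arntl2*, beside a median of 77.2% over all tested genes and of 90.3% over those that passed the time test.

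**Figure D2:**
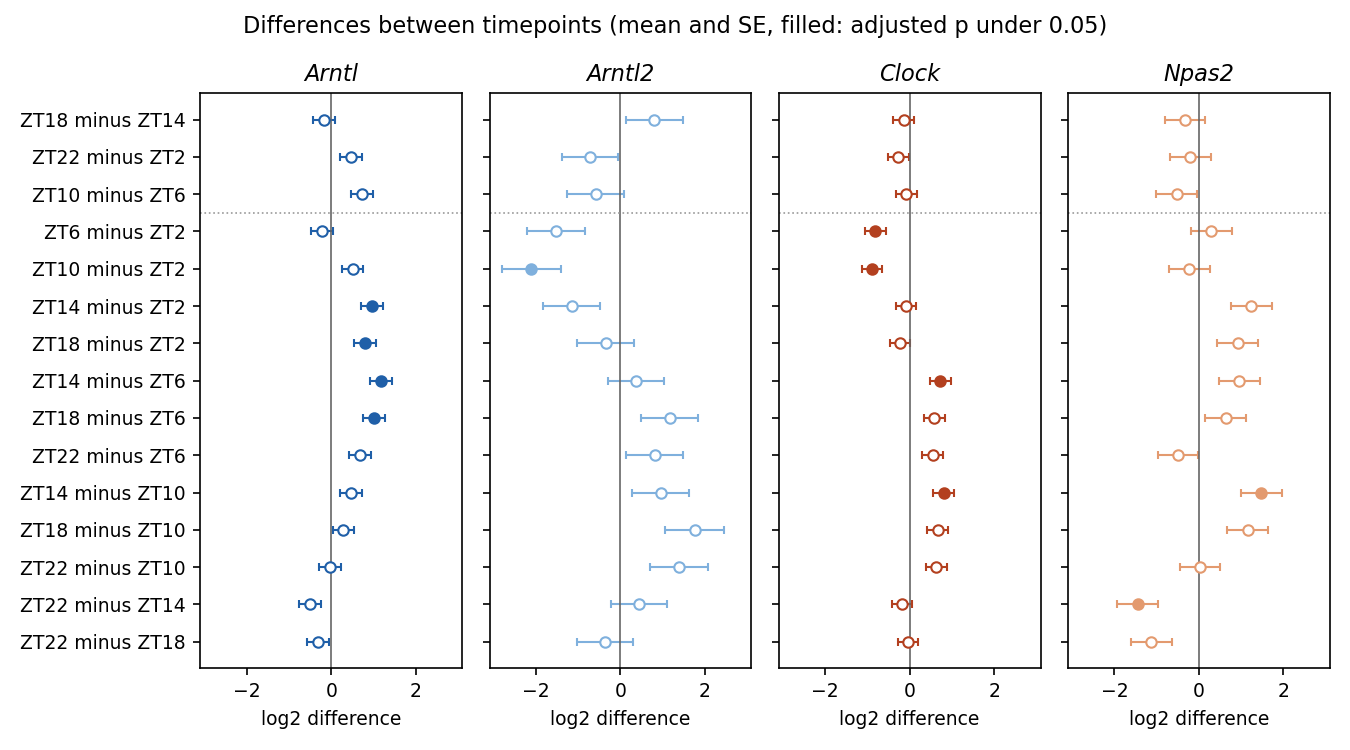
Log2 difference (x axes) between each pair of timepoints (rows) for each gene, with bars for the SE and filled symbols for edgeR q under 0.05; the rows above the dotted line lie within the clusters of libraries. The 11 filled symbols, 4 for *Arntl*, 1 for *Arntl2*, 4 for *Clock* and 2 for *Npas2*, are all below that line.

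Ratios within a library do not depend on how libraries are scaled to each other. The ratio of *Clock* to *Arntl* counts per kb was 1.36, 1.83 and 1.33 in replicates A, B and C at ZT2, and 0.508, 0.552 and 0.679 at ZT10. All replicates at ZT2 were above 1, and all replicates at ZT10 were below every replicate of ZT2, ZT6 and ZT22. Whether a ratio lies above 1 depends on the exon lengths used, whereas the order of the replicates does not. Over all 18 replicates the ratio ran from 0.508 to 1.83 with a median of 0.887. With *Npas2* counted as the second gene of the CLOCK side, its share of that side per kb was 29.8 ± 2.63% at ZT14, 14.6 ± 3.27% at ZT22 and 15.3 ± 4.79% at ZT2. It was 26.1 ± 5.11% at ZT6, 26.9 ± 13.6% at ZT18 and 19.9 ± 5.81% at ZT10, and it ran from 10.8% to 42.5% over all replicates, the highest in replicate B at ZT18. *Arntl2* made up 22.6 ± 6.99% of the ARNTL side at ZT2 and 4.37 ± 2.91% at ZT10. These are shares of transcripts per kb, not of protein, and depend on the exon lengths used. At ZT6 and ZT10 the ratios and shares also depend on which of the study's tables is used. Reads recovered from its second table were there 53.4% and 55.9% of the counts for *Npas2*, but 76.9% and 80.3% for *Clock*. For *Arntl2* they were 66.1% and 54.1%, beside 81.6% and 84.6% for *Arntl*. Shares from recovered reads were not calculated.

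**Figure D3:**
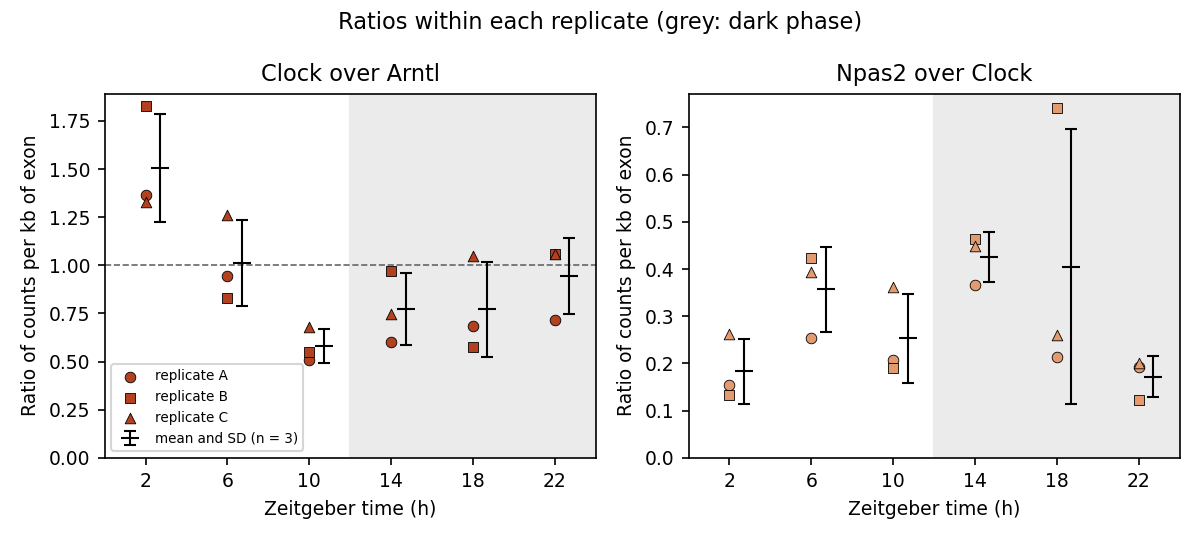
Ratio of *Clock* to *Arntl* (left) and of *Npas2* to *Clock* (right) counts per kb of exon (y axes, from 0) in each replicate against zeitgeber time (hr), with mean and SD of n = 3 and the dark phase in grey. The dashed line marks equal counts per kb for the exon lengths used. The 3 replicates of ZT2 lie above it at 1.33 to 1.83 and those of ZT10 below it at 0.508 to 0.679.

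A 24 hr cosine was fitted to log2 CPM, and limma's test of the fit, adjusted over all tested genes, gave an adjusted p = 0.00375 for *Arntl* and 0.0345 for *Arntl2*, but 0.107 for *Clock* and 0.150 for *Npas2*, which did not pass. Fitted peak times fell in the dark phase for all 4, although the highest timepoint means of *Clock* and *Arntl2* were at ZT2. The fitted peaks were ZT15.9 ± 0.67 (SE, hr) for *Arntl*, ZT15.4 ± 1.64 for *Npas2*, ZT20.2 ± 1.35 for *Clock* and ZT22.1 ± 1.17 for *Arntl2*. The fit explained 68.3% of the variance of log2 CPM for *Arntl*, and 26.7% to 41.5% for the others. Across the 18 replicates, which share libraries and the 3 clusters, the log2 levels of *Arntl* and *Clock* had r = 0.39, *Arntl* and *Npas2* r = 0.43, and *Clock* and *Npas2* r = 0.40, while *Arntl* and *Arntl2* had r = 0.03. For *Arntl*, 5% of 15758 genes had an r above 0.56, which none of these values reached.

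Of the genes that the pair drives or that act on it, the repressors *Per1*, *Per2*, *Per3*, *Cry1* and *Cry2* all passed the time test (5 of 5) and 4 of them were called cycling. *Per2* peaked at ZT9.57 ± 0.36 in the cosine fit, *Per1* at ZT8.68 ± 0.48, *Per3* at ZT9.30 ± 0.81 and *Cry1* at ZT9.28 ± 0.72, and *Cry2*, highest at ZT14, was the one not called cycling. Across replicates *Arntl* had r = -0.16 with *Per2* and -0.34 with *Per1*, and r = 0.60 with *Cry2*, above the limit of 0.56.

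Of the receptors that act on the *Arntl* promoter, 3 of the 4 described here passed the time test, and all 3 were called cycling. *Nr1d2* (a REV-ERB repressor) peaked at ZT4.92 ± 0.48 and had r = -0.74 with *Arntl* over the 18 replicates, beyond the lowest 5% of genes (r under -0.52). *Rora* (a ROR activator) peaked at ZT7.52 ± 0.31 with r = -0.45, and *Rorb* at ZT1.08 ± 0.79 with r = -0.37. *Nr1d1* (REV-ERB alpha) did not pass (edgeR q = 0.330). Its replicates were widely spread at ZT2, its highest mean (360 ± 320 CPM, lowest replicate 64.4 CPM), beside 108 ± 8.99 CPM at ZT10, its lowest.

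Among outputs of E-boxes and D-boxes and the DEC repressors, 7 of 8 passed the time test and 4 were called cycling. *Dbp* (a PAR bZIP factor and a direct target) peaked at ZT5.57 ± 0.23 with r = -0.69 against *Arntl*, and *Bhlhe41* (DEC2, a repressor at E-boxes) at ZT5.68 ± 0.51 with r = -0.68. *Hlf* (a PAR bZIP factor) peaked at ZT8.49 ± 0.39. *Bhlhe40* (DEC1) had its highest mean at ZT14 (140 ± 52.7 CPM), was not called cycling (JTK_CYCLE exact p = 0.481), and had r = 0.74 with *Clock*. *Nfil3* (a D-box repressor) was the one that did not pass (edgeR q = 0.0639).

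Of 20 genes whose products bind or modify the activator pair, 19 were tested (*Kmt2a* was not), 11 passed the time test and 6 were called cycling. The strongest by the time test were *Stub1* (a ubiquitin ligase), with 92.1 ± 13.2 CPM at ZT10 and 11.3 ± 1.16 at ZT2, and *Ddb1* (a subunit of a ubiquitin ligase), with 573 ± 68.5 CPM at ZT2 and 143 ± 5.61 at ZT10. *Crebbp* (an acetyltransferase that binds the pair) had 103 ± 15.5 CPM at ZT14 and 53.3 ± 10.6 at ZT10, and *Prkca* (a kinase) 144 ± 26.8 CPM at ZT22 and 74.6 ± 8.57 at ZT18. Their median swing of log2 0.93 was below the median of 1.63 over all tested genes, a comparison made without adjustment for level.

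Among 15 other bHLH-PAS genes, 14 were tested (*Sim2* was not), 7 passed the time test and 4 were called cycling. *Epas1* (a hypoxia factor) had 157 ± 37.6 CPM at ZT18 and 36.5 ± 12.1 at ZT2, *Npas3* 50.9 ± 12.2 CPM at ZT6 and 15.4 ± 2.96 at ZT14, and *Arnt* (the general partner of the family) 24.4 ± 11.5 CPM at ZT18 and 7.25 ± 1.13 at ZT22. *Npas4* (induced by neuronal activity) had 5.38 ± 1.502 CPM at ZT14 and 0.0128 ± 0.0222 at ZT2. These shares, here and in the lists above, stand beside 44.0% of all tested genes for the time test and 29.9% for the cycling call.

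**Figure D4:**
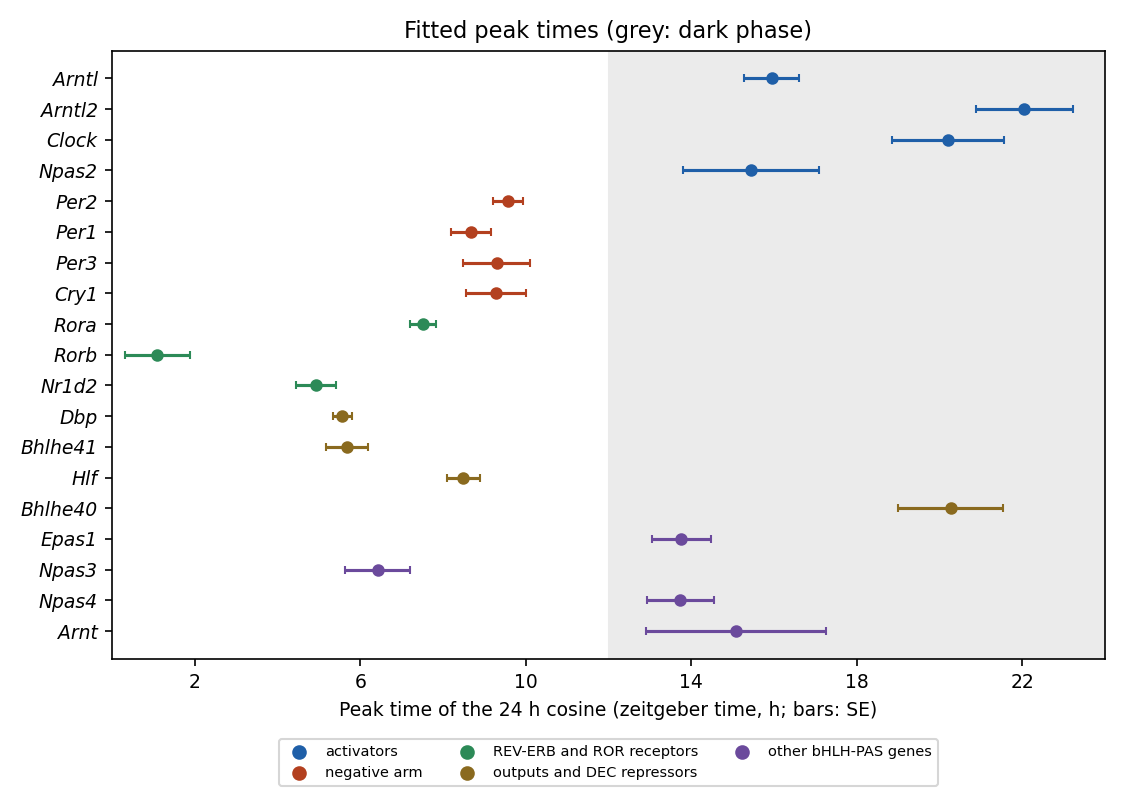
Peak time of the fitted 24 hr cosine (x axis, zeitgeber time in hr; bars, SE) for the 4 activators and for named genes of 4 lists (rows, colored by list), with the dark phase in grey. Fitted peaks of the activators lie between ZT15.4 and ZT22.1, those of *Clock* and *Npas2* from fits that did not pass limma's test, and *Per1*, *Per2*, *Per3* and *Cry1* between ZT8.68 and ZT9.57.

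The genes whose log2 level followed each member most closely were taken from 15758 genes averaging 10 counts or more, with Pearson's r over the 18 replicates as the measure. Nearest to *Arntl* were *Gm9144* (r = 0.83), *Ccer2*, *Hsph1* (a heat shock protein), *Ssr1* and *Narfl* (r = 0.80), and most opposite were *Aif1* (a microglial marker, r = -0.82), *Rasl11b* and *Dusp1* (a phosphatase, r = -0.79). Nearest to *Clock* were *Cdyl2* (r = 0.89), *Med23* (a Mediator subunit), *Rab8b*, *Atp8a2* and *Gm5578* (r = 0.845), opposite to *Zcchc17* (r = -0.89), *Spg21* and *Ndufb11*. Nearest to *Npas2* were *Nebl* (r = 0.86), *Dlg4* (PSD-95, a scaffold of synapses), *Zc3h7b*, *Arrb1* (a beta-arrestin) and *Unkl* (r = 0.83), opposite to *Mrps36* (r = -0.89), *Npm1* and *Usp51*. Nearest to *Arntl2* were *Grip1* (r = 0.87), *Enpp6* (a marker of newly formed oligodendrocytes), *Brd7*, *Otud7b* and *Zfp85os* (r = 0.84), opposite to *Klf2* (r = -0.84), *Il10rb* and *Fbxl6*.

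The study's second table holds normalized values from which whole reads could be recovered, and the members differed between the tables at ZT6 and ZT10 only. At ZT2, ZT14, ZT18 and ZT22 the recovered reads of all 4 genes equalled the counts (100%). At ZT6 and ZT10 they were 81.6% and 84.6% of the counts for *Arntl*, 76.9% and 80.3% for *Clock*, 66.1% and 54.1% for *Arntl2*, and 53.4% and 55.9% for *Npas2*. A median gene with at least 30 counts had 90.9% and 90.7%, and *Npas2* stood at the 9.50 and 8.86 percentile of such genes. Which table is nearer to the reads at these timepoints is not known here. With recovered reads, *Npas2* passed the time test (edgeR q = 0.0119) and its ZT14 over ZT10 difference rose to a log2 value of 2.09, while *Arntl* and *Clock* kept their time calls.

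**Figure D5:**
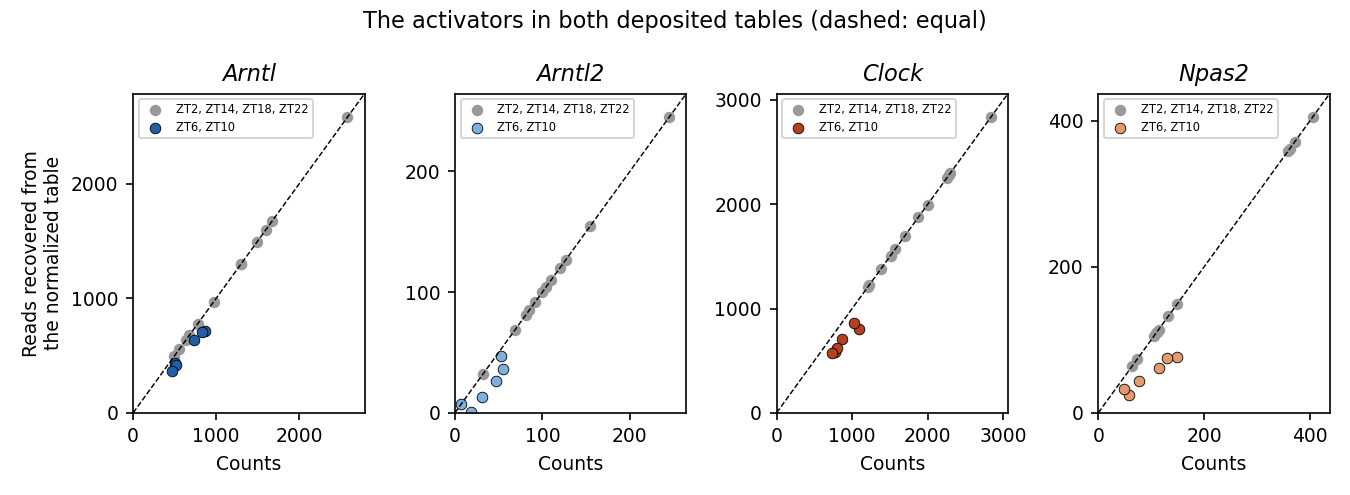
Reads recovered from the normalized table (y axes) against deposited counts (x axes) for each gene, 1 point per replicate, with a dashed line at equality; ZT6 and ZT10 are colored, other timepoints grey. Grey points lie on the line, and most colored points lie under it. The lowest single point in proportion is *Arntl2* in replicate A at ZT6, with 1 recovered read of 19 counts. Summed over the 3 replicates, the lowest shares are those of *Npas2* at ZT6 (53.4% of the counts) and *Arntl2* at ZT10 (54.1%).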

How the data were processed

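The authors aligned the reads with GSNAP to mm10 (GRCm38) and counted them per Ensembl gene with HTSeq 0.5.4p1, and they deposited whole-number read counts per replicate without normalization, lanes combined. Their second table, deposited as normalized signal, holds counts divided by a size factor (100% of its values were whole multiples of 1 step within 0.01 of a read). No sample column was left unused (0). Here edgeR 4.0.16 in R 4.3.3 (TMM, a minimum of 1 read in over 6 replicates, quasi-likelihood tests, Benjamini–Hochberg over all tested genes, threshold 0.05) gave the time test and 15 contrasts from one fit to all 18 replicates without covariates. JTK_CYCLE was rewritten in Python 3.11.15 (24 hr, 6 lags, exact null, Bonferroni over lags). Cosine fits and correlations used log2 CPM (prior count 2). DESeq2 1.42.0 and limma 3.58.1 were alternatives. Fits were tested on simulated data. Samples of the same replicate letter were no more alike in their deviations than others (correlations -0.19 to 0.10 over 45 pairs, beside -0.21 to 0.21 over 90 pairs of different letters). Whether a letter marks a shared batch is not given in the labels, and the main fit did not pair samples by it. The genes and lists were chosen with earlier results of these data known. Named list genes pass the time test with no overlap between the highest and the lowest timepoint, up to 4 a list by p. Named like genes are the 5 highest and 3 lowest correlations. Results for 2 genes of these lists are not reported here, and list counts and sums leave them out.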

Additional observations from a re-analysis of the deposited data

How the results depend on the processing

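Of 1264 alternative values, 1154 were counted as unchanged and 110 were not, and no called value changed sign. Tests had to keep their side of the threshold, and counts and fitted values to stay within a set range. Correlations were all counted as unchanged. Contrasts between clusters entered only where the main fit called them, so calls gained in other pairs were not counted. Such gains included *Arntl* ZT22 over ZT6 with upper-quartile scaling (edgeR q = 0.0407). With DESeq2's Wald test they included *Arntl2* ZT6 against ZT2 (adjusted p = 0.0391) and *Npas2* ZT14 over ZT2 (0.0493). A difference called in neither fit was counted as unchanged whatever its sign. An example is *Arntl* ZT18 minus ZT14 (log2 -0.18, and 0.13 without replicate A at ZT14). DESeq2's likelihood ratio test gave q = 0.0229 for *Arntl2* and 0.0136 for *Npas2*, and *Npas2* also passed with at least 10 counts in every replicate (0.0182) and with recovered reads (0.0119, chosen after seeing the data). *Arntl2*, with 7 reads in one library, has no value under that filter. On recovered reads, 9367 genes passed the time test, beside 8343 on counts. Upper-quartile scaling moved the median gene by up to -0.21 (log2, ZT14 minus ZT2) relative to TMM. With it, with DESeq2's size factors and with no filter, the calls of *Arntl* ZT18 over ZT2, *Clock* ZT14 over ZT6 and over ZT10, and *Npas2* ZT14 against ZT10 and ZT22 were lost (q from 0.0556 to 0.119), and the last also with recovered reads (0.0579). The cause was not tested. The replicate block left the time calls unchanged (*Arntl* 0.00440, *Arntl2* 0.151, *Clock* 0.0322, *Npas2* 0.0599) and ended 1 contrast, *Clock* ZT14 over ZT6 (q = 0.0509).

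The 108 genes called between ZT14 and ZT18 became 842 with DESeq2, 71 with upper-quartile scaling and 245 with at least 10 counts. The 6 between ZT22 and ZT2 became 34 with DESeq2, 10 with its size factors, 16 with at least 10 counts and 14 without a filter. The 9 between ZT6 and ZT10 became 246, 4 with at least 10 counts, 16 without a filter and 2 with the replicate block. Leaving out 1 replicate gave 0 to 225, 1 to 17 and 2 to 50 genes for these contrasts, q of 0.0570 to 0.232 for *Arntl2*, 0.00380 to 0.0580 for *Clock* and 0.0190 to 0.119 for *Npas2* in the time test, and p of 0.00627 to 0.0662 for *Arntl2* in JTK_CYCLE.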
